A study of Mus musculus with 6 samples.

Results

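Glycolysis is the stepwise conversion of glucose to pyruvate. The 35 mouse genes described here encode its carriers, enzymes and nearest regulators: 3 glucose transporters, the isozymes of each glycolytic step, lactate dehydrogenase and the lactate carriers, the pyruvate dehydrogenase E1 subunits with their kinases, and the transcription factor subunit Hif1a. They were taken by name from the deposited table of 55471 genes, all 35 were found, and 34 of them held enough counts to be among the 13826 genes tested. RNA was sequenced from primary osteoblasts, the bone-forming cells, of 3-day-old C57BL/6 mice, with 3 libraries from mice labelled wild type (WT) and 3 from triple conditional knockout mice (TCKO, Prx1-Cre with Tet1fl/fl, Tet2fl/fl and Tet3fl/fl). Cells were released from the parietal bone of the skull and cultured for 3 days, so each library was a mixed culture and not a sorted cell type. Prx1-Cre is a recombinase active in limb and skull mesenchyme, and cells of other origin keep their floxed alleles. Whether the WT animals carried floxed alleles or the Cre was not given. The comparison of TCKO with WT asked how the loss of TET enzymes, the oxidases of methylated cytosine, altered gene expression in these cells.

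Glucose enters a cell through carriers of the GLUT family, is trapped by hexokinase, and is committed to breakdown by phosphofructokinase, the main control point of the pathway. Pyruvate is then either reduced to lactate and exported with a proton through a monocarboxylate carrier, or oxidised in mitochondria through pyruvate dehydrogenase, which its kinases switch off by phosphorylation. Osteoblasts are known to use much glucose and to release much of it as lactate even with oxygen present. The hypoxia-inducible factor subunit encoded by Hif1a is known to raise transcription of many glycolytic genes.

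The libraries held between 8019999 and 10177214 counts. Tet1 fell in TCKO (log2 fold change -0.97, adjusted p = 0.00648), Tet2 was at -0.14 (adjusted p = 0.545) and Tet3 rose (0.51, adjusted p = 0.00745), all by edgeR on counts over whole genes, which do not isolate the deleted exons. Replicates 1 and 2 of a genotype were close to each other, with a biological coefficient of variation (the spread between libraries beyond counting noise) of 3.00% in WT and 3.62% in TCKO, against 16.4% to 18.4% for every pair with replicate 3. Replicate 3 of both genotypes had a higher share of mitochondrial transcripts (2.22% and 2.47%, against 1.11% to 1.24% in the other 4 libraries). TCKO replicate 3 held 4583 counts of Xist and 0 of the Y-linked Ddx3y, the pattern of female cells, whereas the other 5 libraries held 1 to 4 counts of Xist and 675 to 1094 of Ddx3y. Since 3 libraries per genotype included these close pairs and nothing given states that they came from separate animals or cultures, p-values may measure a spread that is partly technical. This limit weighs most where a replicate 3 is left out below, since that genotype is then represented by its close pair alone.

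The culture also differed between genotypes in markers of cell types. Of 9 chondrocyte markers 8 fell, and their summed level was 6436 to 8365 CPM in WT (CPM, counts scaled to a common library size with TMM factors) and 746 to 1026 CPM in TCKO. Of 11 tested osteoblast markers 5 fell, among them Alpl and Runx2, and Spp1 rose. The late marker Bglap was at 0 to 2 counts in every library and the related Bglap2 at 0 to 5. How reads shared between genes were counted is not stated, and sequence shared by this pair was not examined. Their low counts therefore do not show that the genes were silent. Of 12 haematopoietic markers 3 fell, against 8.63% of all tested genes, and the sum of the 12 was 425 to 788 CPM in WT and 172 to 587 CPM in TCKO. All 12 had a log2 fold change below 0, with a median of -0.98. In 11 of them TCKO was lower than WT in all 3 replicate numbers (91.7%, against 28.6% of all tested genes). The part of these differences in the results below was not tested, and in bulk RNA fewer cells of a type and less RNA per cell cannot be told apart.

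Promoter sequences are shown for the 5 members past the test with the largest fold changes, of which 4 rose and Hk1 fell. Each is a RefSeq promoter entry of build GRCm38.p6, 300 bases long, from 250 bases before the annotated start site to 50 after it, written 5′ to 3′ on the strand of the gene. Capitals mark ACGTG or GCGTG, the core letters of the element that hypoxia-inducible factors are known to bind, on either strand (read as CACGT or CACGC on the other).
Slc2a1 promoter (chr4:119108495-119108794, plus strand): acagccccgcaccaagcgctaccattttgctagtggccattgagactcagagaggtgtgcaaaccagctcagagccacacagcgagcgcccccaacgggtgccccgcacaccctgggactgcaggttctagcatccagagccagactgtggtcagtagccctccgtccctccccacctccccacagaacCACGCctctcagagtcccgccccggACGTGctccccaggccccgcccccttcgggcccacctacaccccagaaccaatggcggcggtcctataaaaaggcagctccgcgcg
Pgk1 promoter (chrX:106186850-106187149, plus strand): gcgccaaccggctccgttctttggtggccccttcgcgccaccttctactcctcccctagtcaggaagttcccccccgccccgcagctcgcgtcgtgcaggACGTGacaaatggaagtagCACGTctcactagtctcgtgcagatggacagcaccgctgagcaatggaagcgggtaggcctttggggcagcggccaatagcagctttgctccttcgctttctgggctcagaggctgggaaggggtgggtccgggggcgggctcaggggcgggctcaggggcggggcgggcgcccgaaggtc
Gpi1 promoter (chr7:34230287-34230586, minus strand): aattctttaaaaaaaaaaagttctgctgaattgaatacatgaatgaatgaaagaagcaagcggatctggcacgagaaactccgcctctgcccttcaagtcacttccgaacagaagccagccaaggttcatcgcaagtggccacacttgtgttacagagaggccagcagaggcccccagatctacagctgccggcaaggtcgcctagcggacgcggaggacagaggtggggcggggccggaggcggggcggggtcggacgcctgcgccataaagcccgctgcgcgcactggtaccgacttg
Eno1 promoter (chr4:150236458-150236757, plus strand): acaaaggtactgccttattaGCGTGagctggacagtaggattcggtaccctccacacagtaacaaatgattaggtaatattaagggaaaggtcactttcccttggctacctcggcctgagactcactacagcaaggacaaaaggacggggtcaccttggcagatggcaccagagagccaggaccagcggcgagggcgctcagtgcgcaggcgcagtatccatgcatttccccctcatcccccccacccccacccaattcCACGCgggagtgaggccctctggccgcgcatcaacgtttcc
Hk1 promoter (chr10:62379859-62380158, minus strand): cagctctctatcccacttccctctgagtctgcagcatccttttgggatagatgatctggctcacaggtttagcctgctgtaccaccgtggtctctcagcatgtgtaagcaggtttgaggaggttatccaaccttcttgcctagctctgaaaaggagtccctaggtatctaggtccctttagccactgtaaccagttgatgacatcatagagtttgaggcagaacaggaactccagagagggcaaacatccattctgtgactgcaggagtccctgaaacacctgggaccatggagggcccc

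The Slc2a1 window held 1 ACGTG and 1 GCGTG, the Pgk1 window held 2 ACGTG, and the Eno1 window held 2 GCGTG. The Gpi1 and Hk1 windows held neither. A RefSeq promoter entry was matched by symbol and chromosome for 33 of the 35 members, all but Slc2a3 and Slc2a4. Where a gene had several entries, such as 2 for Hk1, 3 for Eno1 and 4 for Pfkm, the nearest to the 5′ end in the deposited table was used. Which start site these cells used was not measured. ACGTG was found in 15 of these 33 windows (45.5%), against 19.6% of all 32841 promoter windows of the same length, and GCGTG in 19 (57.6%), against 32.4%. The palindrome CACGTG is read as ACGTG on both strands. TGTGGT, the core letters known for RUNX factors, was in 7 windows (21.2%), against 16.8% of all. The member windows also held more CpG pairs, with a median of 20, against 7 over all windows, and both ACGTG and GCGTG contain a CpG. These letter matches are descriptions of the windows and no binding was measured. The windows with the most ACGTG matches were those of Ldha, with 5, and of Hif1a, Pfkm and Slc16a1, with 3 each, and none of these 4 genes passed the test between genotypes.

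Of the 34 tested members, 4 rose in TCKO (Slc2a1, Pgk1, Gpi1 and Eno1) and 2 fell (Hk1 and Pdha1) at an adjusted p under 0.05. The 4 that rose were 11.8% of the tested members, against 9.07% of all 13826 tested genes that rose. The 2 that fell were 5.88%, against 8.63% of all tested genes that fell. The share past the test was thus near that of all genes in both directions, and these counts are not a result about the pathway. No member passed both the test and a 2-fold change in edgeR (0 higher and 0 lower, against 3.16% and 3.19% of all tested genes). At an unadjusted p under 0.05, 10 members were higher (29.4%, against 16.5% of all tested genes) and 4 lower (11.8%, against 16.0% of all), of which only Slc2a4, lower, was past 2-fold. DESeq2 placed 6 higher (17.6%, against 9.11% of all genes) and 2 lower (5.88%, against 8.54%), and 0 past 2-fold.

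The fold changes of the members lay mostly on the positive side. In 25 of the 34 (73.5%) the log2 fold change was above 0, against 6916 of the 13826 tested genes, and the median was 0.17, against 0.0002 over all tested genes. Most of these values were small compared with their intervals. The 3 WT libraries and the 3 TCKO libraries did not overlap in 8 members with TCKO higher (23.5%, against 19.4% of all tested genes) and in 3 with TCKO lower (8.82%, against 18.9%). The counts of the 35 members together took up 0.494%, 0.485% and 0.554% of WT libraries 1 to 3 and 0.699%, 0.711% and 0.5415% of the TCKO libraries, so TCKO replicate 3 lay within the WT range and the other TCKO libraries lay above it.

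**Figure D1:**
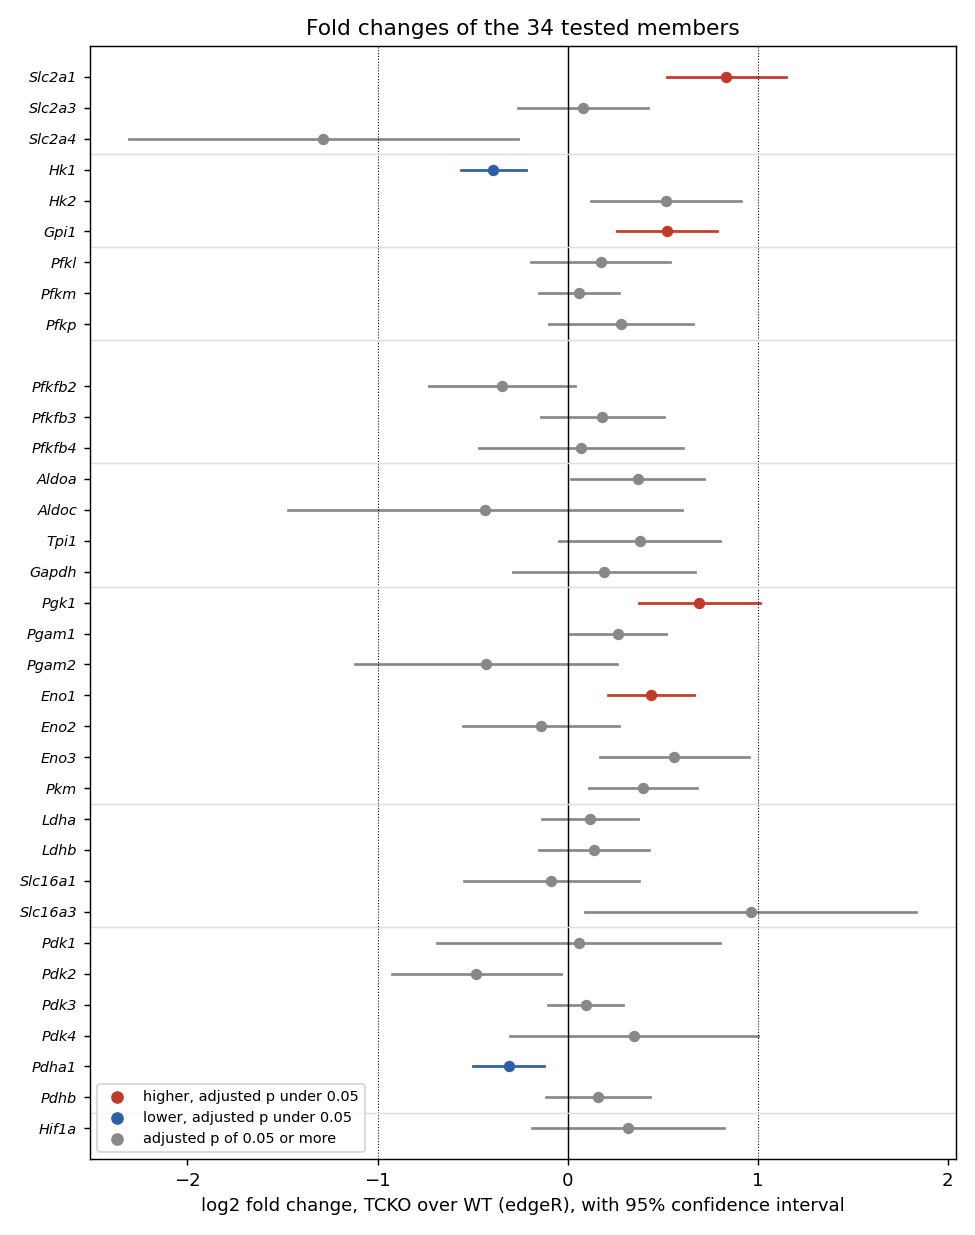
Log2 fold change of TCKO over WT for the 34 tested members, in pathway order from the glucose transporters at the top to Hif1a at the bottom, with grey lines between functional groups. Points are edgeR estimates, bars are 95% confidence intervals, dotted lines mark a 2-fold change, and colours mark the 4 members that rose and the 2 that fell.

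Levels of different genes were compared as RPKM, CPM divided by the summed exon length in kilobases. Aldoa was at 329 ± 18.9 RPKM in WT (SD, n = 3), Ldha at 243.5 ± 31.4, Pkm at 223 ± 19.9, Tpi1 at 138 ± 1.70 and Eno1 at 94.8 ± 5.14, and these 5 enzymes were also the 5 highest members in TCKO. Ldha and Pkm differed in WT by less than the SD of Ldha. The order is that of the deposited counts, and how reads shared with copies were counted is not stated. Levels of members with much shared sequence, such as Gapdh, Pgk1, Pgam1, Eno1 and Pkm, are therefore uncertain. At the other end Slc2a3, Slc2a4, Aldoc and Pfkfb1 were all below 1.4 RPKM in every library. Pfkfb1 held 6 to 13 counts per library and was not tested.

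**Figure D2:**
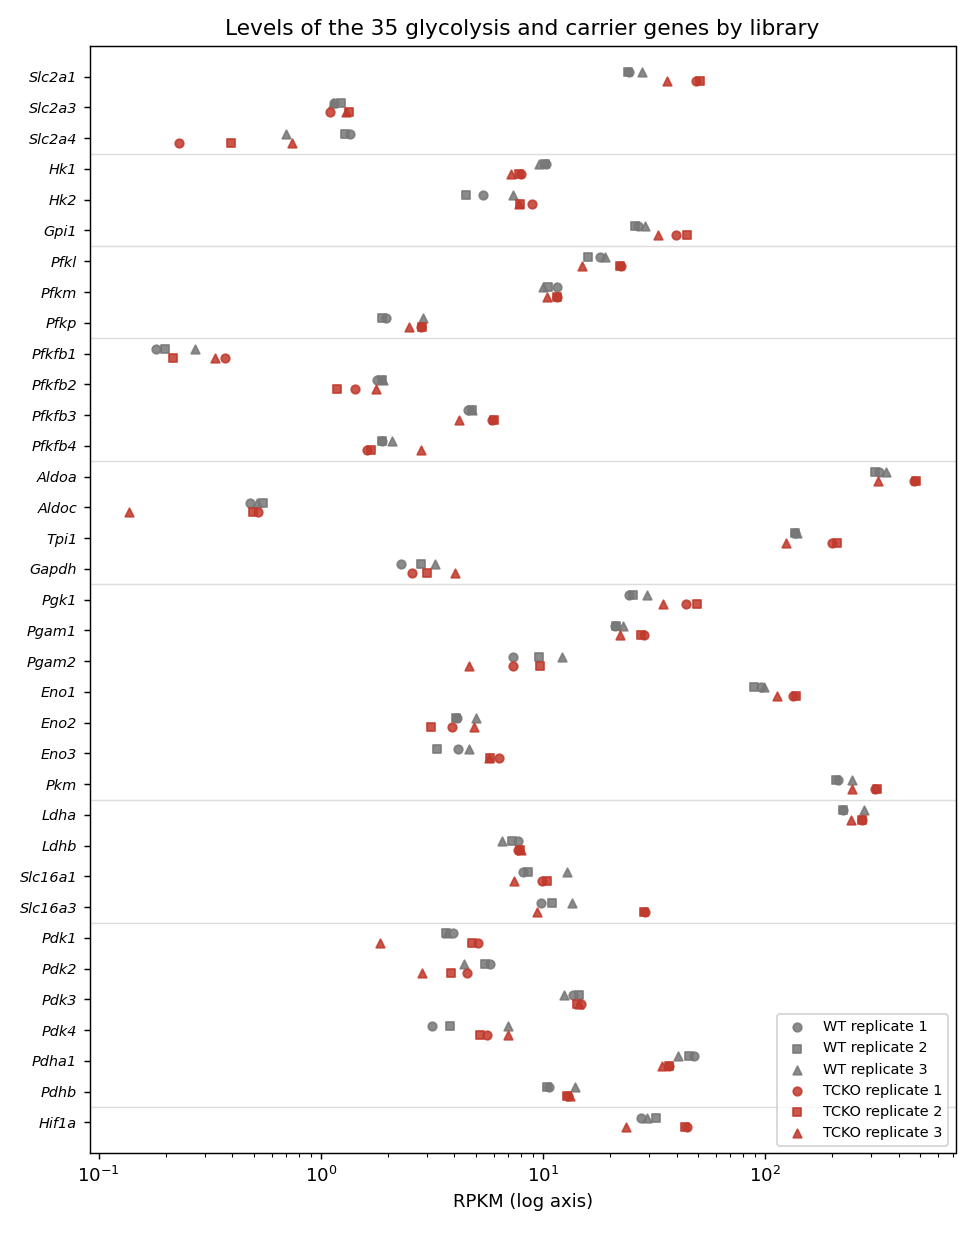
RPKM of each of the 35 members in each of the 6 libraries, on a log axis, in pathway order, with WT in grey and TCKO in red and the replicate number given by the symbol. TCKO replicate 3 (red triangle) sat to the left of TCKO replicates 1 and 2 in most of the lower pathway, for instance in Aldoa, Tpi1, Slc16a3, Pdk1 and Hif1a.

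Slc2a1, which encodes GLUT1, the main glucose carrier of osteoblasts, was the member with the largest increase past the test. It lies on chromosome 4 (119108711 to 119137983, plus strand, GRCm38, ENSMUSG00000028645). Its level was 85.5, 84.4 and 97.7 CPM in WT replicates 1, 2 and 3 and 171.5, 179 and 127 CPM in TCKO replicates 1, 2 and 3. Every TCKO library was above every WT library, and TCKO replicate 3 was the lowest of the 3. The log2 fold change was 0.83 ± 0.14 (SE; adjusted p = 0.00555), and the call held without any 1 of the 6 libraries (adjusted p up to 0.034). Without TCKO replicate 3 it was 0.98, and with replicates 1 and 2 summed, which leaves 2 samples per genotype, it was 0.73 (adjusted p = 0.117).

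The other glucose transporters were scarce. Slc2a3, a high-affinity carrier of neurons and blood cells, held 69, 90, 68, 70, 78 and 84 counts in WT 1 to 3 and TCKO 1 to 3, with a log2 fold change of 0.08 ± 0.15 (adjusted p = 0.747) and overlapping groups. Of the haematopoietic markers, Csf1r, Adgre1 and Itgam fell, and the other 9 had log2 fold changes below 0 that did not pass the test. Csf1r held 153 to 314 counts in WT libraries and 76 to 132 in TCKO libraries. Slc2a4, which encodes the insulin-responsive carrier of muscle and fat, held 39, 45 and 20 counts in the WT libraries and 7, 11 and 23 in the TCKO libraries.
The 2 replicates numbered 3 lay at the same level while the other libraries lay apart, so the groups overlapped, and the log2 fold change of -1.29 ± 0.44 did not pass the test (adjusted p = 0.0847). It passed when either replicate 3 was left out, at -1.84 without that of TCKO (adjusted p = 0.0224) and -1.52 without that of WT (adjusted p = 0.042). The adipocyte markers Adipoq, Plin1 and Cidec were at 0 counts in all 6 libraries. Of the 3 adipocyte markers tested, Lpl, a lipoprotein lipase also made by other cells, fell (-0.93, adjusted p = 0.022), Cebpa was at -0.87 (adjusted p = 0.0615) and Pparg at -0.59 (adjusted p = 0.405), and their part in the values of Slc2a4 was not tested. Among muscle markers Acta1 held 39, 34 and 92 counts in the WT libraries and 585, 573 and 263 in the TCKO libraries, while Myf5 and Pax7 were at 0 and Ckm at 0 to 2 counts throughout.

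Within the glucose transporters, Slc2a1 made up 90.7%, 90.5% and 93.8% of the summed RPKM of the 3 genes in WT and 97.35%, 96.7% and 94.7% in TCKO. These shares did not overlap between genotypes, and WT replicate 3 and TCKO replicate 3 were the closest pair across genotypes. Shares of this kind were not tested and rest on the same counts as the fold changes.

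The first enzymatic step, the phosphorylation of glucose, showed the 2 hexokinase genes on opposite sides. Hk1, the widely expressed isozyme, lies on chromosome 10 (62268855 to 62379908, minus strand) and was at 87.95, 87.3 and 81.85 CPM in WT and 68.1, 66.5 and 61.6 CPM in TCKO. The groups did not overlap and each TCKO library was lower than the WT library of its number, by 0.37, 0.39 and 0.41 on the log2 scale. Hk1 fell by 0.39 ± 0.07 (log2, SE; adjusted p = 0.0108), with the call lost without WT replicate 1 or 2 (adjusted p up to 0.0543).

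Hk2, the inducible isozyme of muscle and growing cells, was at 32.0, 26.9 and 44.0 CPM in WT and 53.2, 47.0 and 46.7 CPM in TCKO. All TCKO libraries lay above all WT libraries, but WT replicate 3 came close to them, and the log2 fold change of 0.52 ± 0.17 did not pass the test (adjusted p = 0.0747). With the replicate number as a block it did (0.54, adjusted p = 0.0392), as it did in DESeq2 (adjusted p = 0.0461) and in the absence of WT replicate 3 (0.74, adjusted p = 0.00535). Hk1 made up 65.8%, 69.4% and 56.5% of the RPKM of both genes in WT and 47.25%, 49.7% and 48.0% in TCKO, with no overlap between genotypes.

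Gpi1, glucose phosphate isomerase, catalyses the next step and lies on chromosome 7 (34201330 to 34230336, minus strand). It was at 173, 168 and 185.5 CPM in WT and 256.5, 286 and 212 CPM in TCKO. All TCKO libraries were above all WT libraries, with TCKO replicate 3 nearest to WT, and Gpi1 rose by 0.52 ± 0.11 on the log2 scale (adjusted p = 0.0184). The call was lost without WT replicate 1 or 2 or TCKO replicate 1 or 2 (adjusted p up to 0.0835). A near-identical intronless copy, Gm1840 on chromosome 8, held 949 to 1187 counts in WT and 1257 to 1529 in TCKO, and with its counts added the log2 fold change was 0.52 (adjusted p = 0.0174).

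The committed step by phosphofructokinase did not pass the test for any of the 3 subunit genes. Pfkl, the liver-type subunit, was at 121, 106 and 127 CPM in WT and 150, 149 and 100.3 in TCKO. Its TCKO replicate 3 was below all WT libraries while the other TCKO libraries were above them, and the log2 fold change was 0.17 ± 0.16 (adjusted p = 0.498). Pfkp, the platelet-type subunit, showed 26.5, 25.4 and 38.6 CPM in WT and 38.0, 38.2 and 33.4 CPM in TCKO (0.28 ± 0.16, adjusted p = 0.285). Pfkm, the muscle-type subunit, was at 33.6 to 38.7 CPM in WT and 34.8 to 38.6 CPM in TCKO, the narrowest spread of the 3, and its 95% confidence interval ran from -0.15 to 0.27. Among the muscle markers given above, Acta1 rose and no other passed the test.

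Pfkfb genes encode enzymes that make and break the fructose bisphosphate which activates phosphofructokinase. Pfkfb3, with high kinase activity, was at 34.9, 36.1 and 36.15 CPM in WT and 44.4, 45.8 and 31.6 CPM in TCKO (log2 fold change 0.18 ± 0.14, adjusted p = 0.415). Pfkfb4 went the other way within TCKO, with 7.86 and 8.185 CPM in replicates 1 and 2 and 13.75 in replicate 3, against 9.16 to 10.15 CPM in WT (0.07 ± 0.23, adjusted p = 0.869). Pfkfb2, the heart-type enzyme, was at 13.05, 13.6 and 13.8 CPM in WT and 10.4, 8.56 and 12.9 in TCKO. The groups of Pfkfb2 did not overlap, and its log2 fold change of -0.35 ± 0.17 did not pass the test (adjusted p = 0.197).

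Aldolase splits the sugar into triose phosphates, which triose phosphate isomerase interconverts. Aldoa, the muscle-type and most general aldolase, was at 950.0, 908 and 1017 CPM in WT and 1370.0, 1398 and 944 CPM in TCKO. Tpi1 was at 377, 375 and 384 CPM in WT and 555, 581 and 341 CPM in TCKO. In both genes TCKO replicates 1 and 2 were above every WT library and TCKO replicate 3 lay inside or below the WT range. The log2 fold changes were 0.37 ± 0.15 for Aldoa (adjusted p = 0.136) and 0.38 ± 0.18 for Tpi1 (adjusted p = 0.196).
Both passed the test when TCKO replicate 3 was left out, at 0.53 (adjusted p = 0.00266) and 0.59 (adjusted p = 0.000828). TCKO was then represented by its close pair of libraries only. Aldoc, the brain-type aldolase, held 13, 18, 14, 15, 13 and 4 counts in WT 1 to 3 and TCKO 1 to 3, with only TCKO replicate 3 apart from the others (-0.43 ± 0.45, adjusted p = 0.552). Among neuronal and glial markers S100b fell (121 to 176 counts in WT libraries and 9 to 21 in TCKO libraries), Gap43 rose, and Snap25 held 0 to 3 counts in every library.

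Gapdh, which oxidises glyceraldehyde phosphate and is often used as a reference gene, held 79, 117, 112, 93, 100 and 149 counts in WT 1 to 3 and TCKO 1 to 3, a mean of 2.80 RPKM in WT, 2 orders of magnitude below Aldoa. Of the 100-base stretches in its main coding transcript (Gapdh-201), 85.8% also occur in transcripts of other genes, and 89 genes elsewhere shared at least 100 different 50-base stretches with it. How shared reads were counted is not stated, so the level of Gapdh in these files is uncertain. Its log2 fold change was 0.19 ± 0.21 (adjusted p = 0.568), and 0.29 (adjusted p = 0.249) with the counts of the 89 copies added, which brought the sum to 219 to 342 counts in WT and 324 to 366 in TCKO. Any shared reads that were counted for no gene would be missing from this sum too, so it may not restore the level of Gapdh. The same limit holds for other members with copies added.

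Pgk1, phosphoglycerate kinase, makes the first ATP of the pathway and was the second member by size of increase past the test. It lies on the X chromosome (106187100 to 106203699, plus strand) and was at 54.97, 57.25 and 66.0 CPM in WT and 99.4, 111 and 77.9 CPM in TCKO. Every TCKO library was above every WT library, and Pgk1 rose by 0.69 ± 0.14 on the log2 scale (adjusted p = 0.0126). The call was lost without WT replicate 1 or 2 or TCKO replicate 1 (adjusted p up to 0.0626), and without TCKO replicate 3, the female-pattern library, the log2 fold change was 0.83. Of the 100-base stretches of its coding transcript 67.0% occur in other genes, among them Pgk1-rs7, which held 44 to 61 counts per library, and Gm5537, which held 0 to 2, and with copies added the log2 fold change was 0.66 (adjusted p = 0.0135).

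Pgam1, the general phosphoglycerate mutase, was at 41.9, 42.1 and 45.6 CPM in WT and 56.7, 54.8 and 44.05 CPM in TCKO. TCKO replicate 3 lay inside the WT range, and the log2 fold change of 0.26 ± 0.11 did not pass the test (adjusted p = 0.138). Its copy Pgam1-ps2 on chromosome 7 held more counts than Pgam1 itself, 1109, 1402 and 1189 in WT and 1601, 1501 and 1075 in TCKO, so reads of the 2 genes may have been split between them. Pgam2, the muscle mutase, held 51, 81, 85, 54, 66 and 35 counts in WT 1 to 3 and TCKO 1 to 3 (-0.43 ± 0.30, adjusted p = 0.367), with TCKO replicate 3 the lowest. Among tested muscle markers Mylpf was lowest in the same library, at 4 counts against 18 to 41 in the others. Myh3, at 6 against 25 to 82, Myh8 and Ttn were lowest there too. Des was at its highest CPM in that library (5.26), and Acta1, at 263 counts there, lay above the 34 to 92 of the WT libraries. The part of muscle cells in the values of Pgam2 was not tested.

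Eno1, the general enolase, lies on chromosome 4 (150236721 to 150248879, plus strand). It was at 514, 480.1 and 535 CPM in WT and 722, 741 and 608 CPM in TCKO. The groups did not overlap, and Eno1 rose by 0.44 ± 0.10 on the log2 scale (adjusted p = 0.0204). The call was lost without WT replicate 1 or 2 or TCKO replicate 1 or 2 (adjusted p up to 0.0949). Its copies Eno1b and Gm4735 held 987 to 1322 counts each in WT and 1089 to 1700 each in TCKO, and with the copies added the log2 fold change was 0.41 (adjusted p = 0.0304).

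Eno3, the muscle enolase, was far scarcer, with 60, 58 and 67 counts in the WT libraries and 97, 81 and 89 in the TCKO libraries. All TCKO libraries were above all WT libraries on the CPM scale, and the log2 fold change of 0.56 ± 0.17 lay just outside the test (adjusted p = 0.058), and inside it with the replicate number as a block (0.56, adjusted p = 0.0488) or without WT replicate 3 (0.67, adjusted p = 0.0345). Acta1 rose beside it as given above, while the other muscle markers together were at 13.65, 10.55 and 33.85 CPM in the WT libraries and 23.7, 26.4 and 7.49 CPM in the TCKO libraries, with overlapping groups. Eno2, the neuronal enolase, was at 19.1 to 23.6 CPM in WT and 14.8 to 23.0 CPM in TCKO, with overlapping groups (-0.14 ± 0.18, adjusted p = 0.632).

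Pkm, pyruvate kinase, which makes pyruvate and the last ATP, was at 1072, 1045 and 1229 CPM in WT and 1573, 1594 and 1241 CPM in TCKO. TCKO replicate 3 was only just above WT replicate 3, and the log2 fold change of 0.40 ± 0.12 missed the test in edgeR (adjusted p = 0.0617) and passed it in DESeq2 (adjusted p = 0.0185). It also passed when either replicate 3 was left out, at 0.51 without that of TCKO (adjusted p = 0.00648) and 0.47 without that of WT (adjusted p = 0.0358). Its copy Gm6560 held 2264 to 2674 counts in WT and 2665 to 3614 in TCKO. With copies added the log2 fold change of Pkm was 0.40 (adjusted p = 0.0727). Of the 5001 exon bases of Pkm, 767 overlap Gm49759 on the same strand. The counts were per gene, so the 2 splice forms of the enzyme could not be told apart.

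Lactate dehydrogenase interconverts pyruvate and lactate. Ldha, the muscle-type subunit, was at 748, 744 and 926 CPM in WT and 908, 906 and 810 CPM in TCKO, and WT replicate 3 was the highest of all 6 libraries. The log2 fold change of 0.12 ± 0.11 did not pass the test (adjusted p = 0.507), with a 95% confidence interval from -0.14 to 0.37. Ldhb, the heart-type subunit, was at 10.3 to 12.1 CPM in WT and 12.2 to 12.52 CPM in TCKO (0.14 ± 0.13, adjusted p = 0.494). Ldha made up 96.7% to 97.7% of the RPKM of both subunits in all 6 libraries.

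Lactate leaves cells through monocarboxylate carriers. Slc16a3, which encodes MCT4, a carrier of lactate-exporting cells, held 431, 587 and 595 counts in the WT libraries and 1350, 1224 and 450 in the TCKO libraries, or 52.1, 58.45 and 71.9 CPM and 154, 152 and 50.3 CPM. TCKO replicates 1 and 2 lay far above WT and TCKO replicate 3 lay below every WT library. The log2 fold change of 0.96 ± 0.38 was the largest positive value among the members and did not pass the test (adjusted p = 0.12), with a 95% confidence interval from 0.09 to 1.83.
Leaving out that library gave 1.33 (adjusted p = 0.000494), with TCKO then represented by its close pair only. A stretch of 306 bases of the Slc16a3 exons overlaps those of Csnk1d on the opposite strand, and the kit kept strand but the counting mode is not stated. Slc16a1, which encodes the general carrier MCT1, was at 35.9, 37.8 and 56.8 CPM in WT and 44.0, 46.0 and 32.9 CPM in TCKO, and its log2 fold change of -0.09 ± 0.20 (adjusted p = 0.803) changed sign without either replicate 3. Slc16a3 made up 54.7%, 56.25% and 51.3% of the RPKM of both carriers in WT and 74.4%, 73.3% and 56.0% in TCKO.

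**Figure D3:**
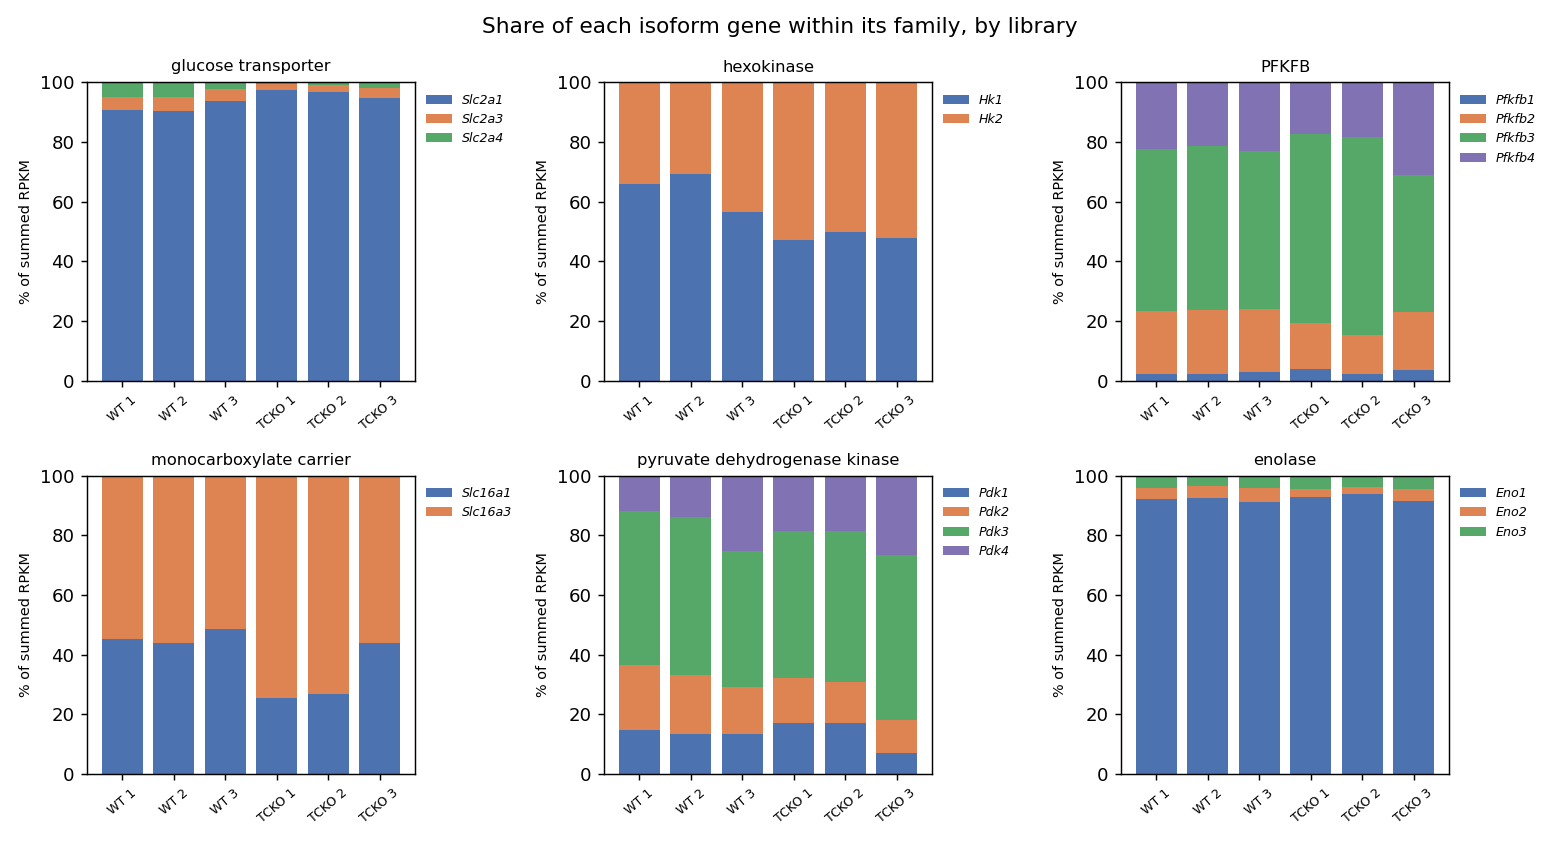
Share of each gene in the summed RPKM of its family in each library, for glucose transporters, hexokinases, Pfkfb enzymes, monocarboxylate carriers, pyruvate dehydrogenase kinases and enolases. Hk1 took 56.5% to 69.4% of the hexokinase total in WT and 47.25% to 49.7% in TCKO. Eno1, without the counts of its copies, stayed between 91.1% and 93.9% of the enolase total in all 6 bars.

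At the entry of pyruvate into mitochondrial oxidation, the E1 alpha subunit gene Pdha1 fell. It lies on the X chromosome (160122209 to 160138413, minus strand) and was at 178, 170.4 and 152 CPM in WT and 137.6, 137.7 and 128 CPM in TCKO. The groups did not overlap, and each TCKO library was below the WT library of its number. Pdha1 fell by 0.31 ± 0.08 on the log2 scale (adjusted p = 0.0361), and the call was lost without any 1 library other than WT replicate 3 (adjusted p up to 0.142). With the female-pattern TCKO replicate 3 left out, its log2 fold change was -0.27 (adjusted p = 0.0535). Pdhb, which encodes the partner E1 beta subunit, was at 40.2 to 53.8 CPM in WT and 49.6 to 51.0 CPM in TCKO (0.16 ± 0.12, adjusted p = 0.403).

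The 4 kinases that switch off pyruvate dehydrogenase did not pass the test. Pdk1, a known target of hypoxia-inducible factors, held 253, 287 and 237 counts in the WT libraries and 349, 302 and 129 in the TCKO libraries, with TCKO replicates 1 and 2 above WT and replicate 3 below it (0.06 ± 0.32, adjusted p = 0.921). Pdk2 was at 18.2, 17.4 and 13.9 CPM in WT and 14.35, 12.15 and 9.06 CPM in TCKO. Each TCKO library of Pdk2 was below the WT library of its number, by 0.34, 0.51 and 0.61 on the log2 scale, and its log2 fold change of -0.48 ± 0.19 missed the test (adjusted p = 0.128) but passed with the replicate block (-0.49, adjusted p = 0.0305). Pdk3 was the most abundant kinase per length, with 32.0 to 37.2 CPM in WT and 36.5 to 37.9 CPM in TCKO (0.09 ± 0.09, adjusted p = 0.501).
Pdk4, the kinase induced by fasting, was at 11.1, 13.4 and 24.5 CPM in WT and 19.6, 18.4 and 24.4 CPM in TCKO, so both libraries numbered 3 were the highest of their genotype (0.35 ± 0.28, adjusted p = 0.439).

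Hif1a was at 163.5, 191 and 174 CPM in WT and 262, 257 and 140 CPM in TCKO. TCKO replicates 1 and 2 were above every WT library and replicate 3 below every one, and the log2 fold change of 0.32 ± 0.22 did not pass the test (adjusted p = 0.367). With that library left out it was 0.56 (adjusted p = 0.00303), with TCKO then represented by its close pair only. HIF activity is known to depend largely on protein stability, which RNA counts do not show.

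The position of TCKO replicate 3 was shared by many members. It was the lowest of the 3 TCKO libraries in 24 of the 34 tested members and the highest in 8, against 40.7% and 41.0% of all tested genes. WT replicate 3 was the highest WT library in 23 members and the lowest in 8, against 40.7% and 41.5% of all tested genes. Relative to replicates 1 and 2, replicate 3 differed by a median of 0.13 on the log2 scale in WT and -0.23 in TCKO over the members, against -0.0026 and 0.0044 over all tested genes.

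Compared library by library within replicate numbers, TCKO was higher than WT in 24 members for number 1, in 25 for number 2 and in 14 for number 3. The median difference was 0.30, 0.32 and -0.06 on the log2 scale over the members and close to 0 in each number over all tested genes. Numbers 1 and 2 are not independent views, as their libraries were nearly alike, and which of them belong together across genotypes rests on the label only. In 9 members TCKO was higher in all 3 numbers (26.5%, against 28.9% of all tested genes), and in 5 it was lower in all 3 (14.7%, against 28.6%). Pgk1, Slc2a1, Gpi1 and Eno1 were among the 9, and Hk1 and Pdha1 among the 5.

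**Figure D4:**
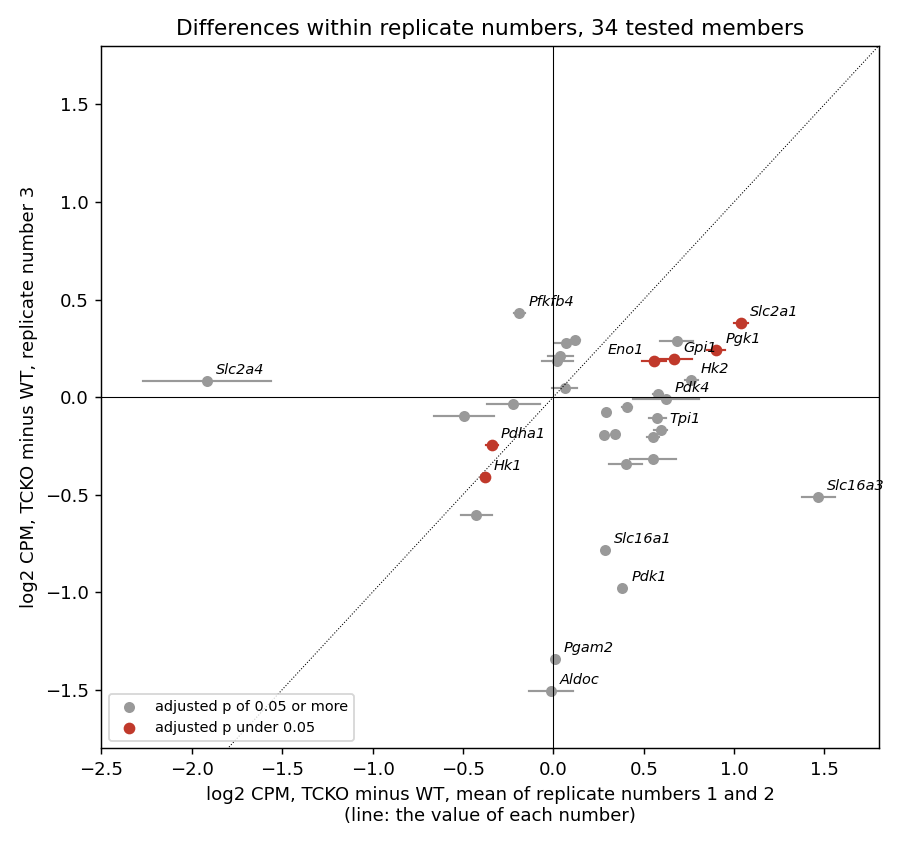
Difference in log2 CPM between TCKO and WT for the 34 tested members, with the mean of replicate numbers 1 and 2 on the x axis (line from the lower to the higher of the 2 numbers) and replicate number 3 on the y axis, and the 6 members past the test in red. Slc16a3, Slc16a1 and Pdk1 lie to the right of 0 and below it, and most members that were higher in numbers 1 and 2 lie under the dotted line of equal values.

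Without TCKO replicate 3 the test called 13 members higher (38.2%, against 10.7% of all tested genes) and 3 lower (against 10.1% of all tested genes). In that fit the TCKO group was the close pair of replicates 1 and 2. The library left out was the lowest TCKO library in 24 of the 34 tested members. The added members were Aldoa, Tpi1, Pkm, Pgam1, Pfkl, Pfkfb3, Slc16a3, Pdk1 and Hif1a, higher, and Slc2a4 and Pfkfb2, lower, while Pdha1 was no longer past the test. Without WT replicate 3 it called 10 higher (29.4%, against 11.7% of all tested genes) and 3 lower (against 10.9% of all tested genes), adding Hk2, Pfkp, Eno3, Pkm, Pdk4 and Pdhb as higher and Slc2a4 as lower. Without replicate 3 of both genotypes, which leaves 2 nearly alike libraries per genotype, 20 members were called higher (58.8%, against 22.6% of all tested genes). In that fit 5 members were called lower, against 22.5% of all tested genes. These p-values rest on the spread between such close libraries only. With replicates 1 and 2 of each genotype summed, 0 members were called and the median log2 fold change of the members was 0.14. That fit called 1.57% of all tested genes higher and 1.22% lower.

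Other genes of glucose metabolism were counted from lists drawn up for this description. Of 107 such genes found, 86 were tested, 8 rose and 6 fell, and their median log2 fold change was -0.05. Of all 13826 tested genes 9.07% rose and 8.63% fell, and the counts per list given below stand beside these shares. Each list held few tested genes, so its count is a description and not a result about the list. Among other glycolytic isozymes 1 of 5 tested genes rose, Bpgm, which makes the bisphosphoglycerate that tunes haemoglobin (0.74, adjusted p = 0.00681), and none fell. Among other hexose and monocarboxylate carriers 3 of 12 fell and none rose: Slc16a7, the carrier MCT2 (-0.96, adjusted p = 0.0206), Slc2a6 (-0.82, adjusted p = 0.0364) and the urate carrier gene Slc2a9 (-1.56, adjusted p = 0.0397).

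In the pentose phosphate pathway, which branches off for NADPH and ribose, 2 of 10 tested genes rose, Pgd (0.47, adjusted p = 0.00628) and Tkt (0.26, adjusted p = 0.0324). Unlike most members, Pgd was as high in TCKO replicate 3 as in the others, with 192, 196 and 222 CPM in WT and 281, 279 and 286 CPM in TCKO. In the hexosamine pathway 1 of 6 rose, Gfpt2, a form of its entry enzyme (0.92, adjusted p = 0.0044). In glycogen metabolism 1 of 11 fell, Phkb (-0.58, adjusted p = 0.0298), and in serine synthesis 1 of 5 fell, Psph (-0.55, adjusted p = 0.0325). None of the 9 further genes of pyruvate entry and the pyruvate dehydrogenase complex passed the test.

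Among 7 tested genes of oxygen sensing and HIF subunits only Epas1, which encodes the second HIF alpha subunit, passed the test, and it fell. It was at 14.4, 15.5 and 20.55 CPM in WT and 6.04, 4.84 and 8.72 CPM in TCKO (-1.36 ± 0.24, adjusted p = 0.00786). Of 16 tested HIF targets outside glycolysis 3 rose and none fell, against 9.07% and 8.63% of all tested genes. The 3 were Adm (0.79, adjusted p = 0.00738), the angiogenic factor Vegfa (0.70, adjusted p = 0.0225) and the histone demethylase Kdm3a (0.46, adjusted p = 0.0489). The median of these 16 was -0.03. Among 5 tested genes of glucose-regulated transcription Mlxip rose (0.30, adjusted p = 0.0245).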

How the data were processed

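Reads were aligned by the authors with STAR 2.7.0e to GRCm38 with Ensembl transcripts, and the submitters' processing notes name featureCounts 2.0.0. The deposited values are raw counts of 6 poly(A) libraries from a strand-preserving kit. The strand setting and the treatment of reads shared between genes were not given in the sources used here. The deposited gene length, the summed exon length in bp, was used for RPKM.

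Genotype was tested with edgeR 4.0.16 in R 4.3.3 (TMM factors, filterByExpr defaults, quasi-likelihood test, two-sided, no covariates), with Benjamini-Hochberg adjustment over 13826 genes and a threshold of 0.05. The test was also run on simulated counts with independent libraries and the same spread for every gene. Such counts cannot show how the test behaves with the close pairs of libraries found here. Log2 CPM used a prior count of 2. An observed count of 0 can hide a true mean of about 3 counts. Over raw library totals, without TMM factors, this is 0.295 to 0.374 CPM per library, a limit for counting error only. Near-identical copies were found by shared 50-base stretches in GENCODE M21 transcripts.

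Groups and replicate numbers came from sample titles. Same-numbered libraries deviated together from their group means (r = 0.204, 0.214 and 0.347 for numbers 1, 2 and 3 across genes, which are not independent). Numbers 1 and 2 were as close when crossed (0.188 and 0.225), so these values set number 3 apart and do not pair 1 with 1 or 2 with 2. The number was used as a pairing only in the replicate block and in differences within numbers, and the main test used none. Alternatives were RLE and upper-quartile factors, 2 other count filters, DESeq2 1.42.0, a replicate block, replicates 1 and 2 summed with and without that block, and each library left out. Chosen after seeing the data were copies added to members and the omission of replicate 3 of both genotypes.

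The members and gene lists were chosen with earlier results of these data known. All members are named, with up to 3 genes past the test per other list by smallest p, markers beside members they could touch, copies, and promoters of the 5 members past the test with the largest fold change. No value column was left unassigned (0).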

Additional observations from a re-analysis of the deposited data

How the results depend on the processing

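RLE factors, upper-quartile factors, a mean of at least 50 counts and added copies left the counts of members called unchanged at 4 higher, 2 lower and 0 past 2-fold. Over 16 alternatives, 12 recomputed member fold changes changed sign, 47 gained the test and 30 lost it. The replicate block gave 6 members higher and 3 lower (Hk2, Eno3 and Pdk2 added), against 1664 higher and 1585 lower of all 13826 tested genes. It changed no other member call, and Pdk1 changed sign (-0.019).

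With no filter beyond 1 count, 8 members were higher and 3 lower (against 5.63% and 5.42% of all genes), and 1 was lower past 2-fold. With replicates 1 and 2 summed, 0 members were higher and 0 lower, 0 other pathway genes and 0 of the 3 Tet genes passed, and 386 genes passed in all. With the replicate block added to that fit, 0 members were higher and 0 lower, 4 other pathway genes passed, and 1150 genes in all. Without replicate 3 of both genotypes, 20 members were higher and 5 lower (against 22.6% and 22.5% of all tested genes), of which 2 and 1 were past 2-fold. That fit called 49 other pathway genes and 6237 genes in all.

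Leaving out 1 library gave 1 to 13 members higher (13 without TCKO replicate 3) and 0 to 3 lower. In these fits 4.36% to 11.7% of all tested genes were higher and 3.98% to 10.9% lower. They gave 0 to 1 members past 2-fold in either direction, 5 to 20 other pathway genes against 14, and 1153 to 3122 genes in all against 2447. Lone replicates were assumed to vary like the rest.

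Signs changed in 5 members, none of them among the 6 past the test with all libraries. With 1 library left out, Pfkfb4 ranged from -0.24 (without TCKO replicate 3) to 0.21, Gapdh from -0.0081 (without TCKO replicate 3) to 0.33, Eno2 from -0.31 to 0.0029 (without TCKO replicate 2), Slc16a1 from -0.21 to 0.15 (without WT replicate 3; 0.05 without TCKO replicate 3), and Pdk1 from -0.18 (without TCKO replicate 1; -0.11 without TCKO replicate 2) to 0.40. Pdk1 was at -0.11 with replicates 1 and 2 summed and -0.22 with the block added. Without replicate 3 of both genotypes, Pfkfb4 was at -0.19 and Slc16a1 at 0.28, which passed the test there (adjusted p = 0.00433). The cause of these changes was not tested. Depth limited mainly Pfkfb1, Aldoc and Slc2a4, at 4 to 45 counts per library.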
